A study of Apis mellifera with 12 samples.

Results

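Gene expression was compared between the brains of forager and nurse workers of the honeybee, *Apis mellifera*, in bulk RNA sequencing. The comparison takes 4 of the 12 libraries of the series, namely both forager and both nurse libraries of the bulk experiment, and covers the 11345 genes of the bulk table. Foragers were workers caught with pollen on their legs, and nurses were workers seen to put their heads into cells with larvae. Both came from the same colony, and their ages are not given. Foragers and nurses are subcastes of the worker caste, and for short each is called a caste below. Each bulk library was made from the RNA of 5 pooled adult brains, extracted with Trizol and sequenced in pairs after oligo(dT) selection, and a library is therefore a pool and not a single bee. Nothing in the sources states whether the glands of the head or the retina were cleared from these brains. The 2 bulk queen libraries, from mated queens of artificial rearing, entered the fits only to help estimate the spread between libraries, and their levels are given as background. The other libraries are single-cell libraries, of which the 4 from foragers and nurses are set beside the bulk values at the end.

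Worker honeybees divide their labor by age. Young workers nurse the brood, and their hypopharyngeal glands, paired glands in the head, secrete the major royal jelly proteins that are fed to larvae. Older workers forage, and the same glands then turn to enzymes that convert the sucrose of nectar. The hemolymph of nurses carries more vitellogenin, a yolk and storage lipoprotein of the fat body, and foragers carry more juvenile hormone. Genes of these systems, of the immune response and of neural signaling were therefore listed by name, and 424 genes fell in at least 1 of 34 lists. A name or a product was known from the sources for 1031 of the 11345 genes.

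The genes of the royal jelly family, *Mrjp1* to *Mrjp9*, set the composition of the nurse libraries. They took 1.51% and 9.79% of the counts of the forager libraries, against 41.8% and 26.1% in the nurse libraries. Queen libraries had 0.00811% and 0.00862%. All nurse values lay above all forager values, and the lower nurse share was 2.67 times the higher forager share. The forager pair was far from even, because the second forager library had 6.49 times the share of the first, while the first nurse library had 1.60 times the share of the second. *Mrjp1* alone made up 0.894% and 6.76% of the forager counts, against 24.05% and 15.7% of the nurse counts. Counting error is small at this depth, with Wilson 95% intervals of 1.501% to 1.515% in the first forager library and 41.8% to 41.8% in the first nurse library. These intervals cover counting error only, because reads without molecular identifiers are not independent molecules.

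**Figure D1:**
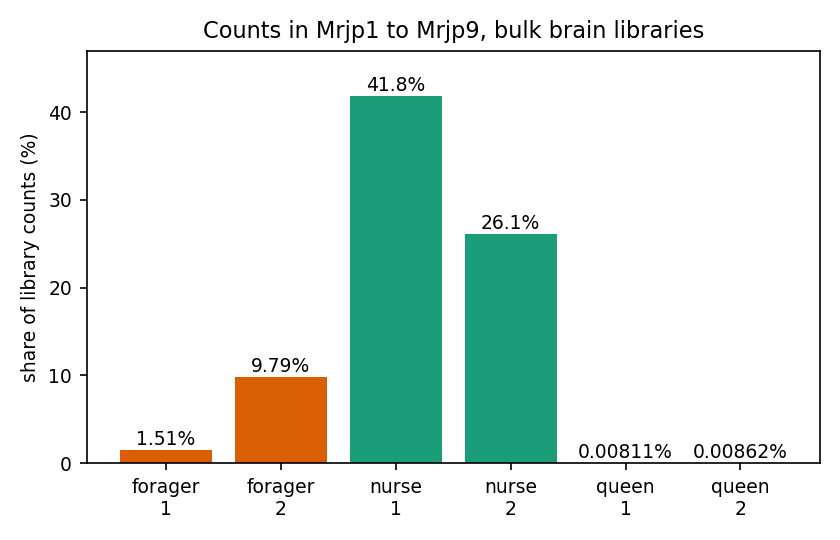
Share of the counts of each bulk library that fell on Mrjp1 to Mrjp9, in percent, with 1 bar per library. The forager bars stand at 1.51% and 9.79%, the nurse bars at 41.8% and 26.1%, and the queen bars are too low to see at 0.00811% and 0.00862%.

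The forager libraries held 13135057 and 13641670 counts, and the nurse libraries 15177035 and 14374100. With the royal jelly genes the mean forager total was 0.906 times the mean nurse total. Without them the totals were 12936983 and 12305632 counts in foragers, against 8832269 and 10616840 counts in nurses, and the forager mean was 1.298 times the nurse mean. Between 10788 and 10917 genes were detected in a worker library. Across the genes tested, the correlation of log levels was 0.985 between the forager libraries, 0.984 between the nurse libraries and 0.973 to 0.978 between the castes, which describes genes that share libraries and is no test.

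The scaling decided where the bulk of the brain's genes lay. When counts were divided by plain library totals that include the royal jelly genes, the median log2 fold change (forager minus nurse) over 9932 genes was 0.49, and 88.6% of the genes lay above 0. With totals that leave these 9 genes out, the median was -0.03, and 46.4% lay above 0. TMM normalization, the trimmed mean of M values, takes its scale from the genes that differ least between libraries. It gave a median of -0.00 with the royal jelly genes and -0.00 without them, and the number of genes called was 1 in both. Levels are given as CPM, counts scaled to a TMM-adjusted library of 1000000, and fold changes come from that fit unless another scale is named.

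**Figure D2:**
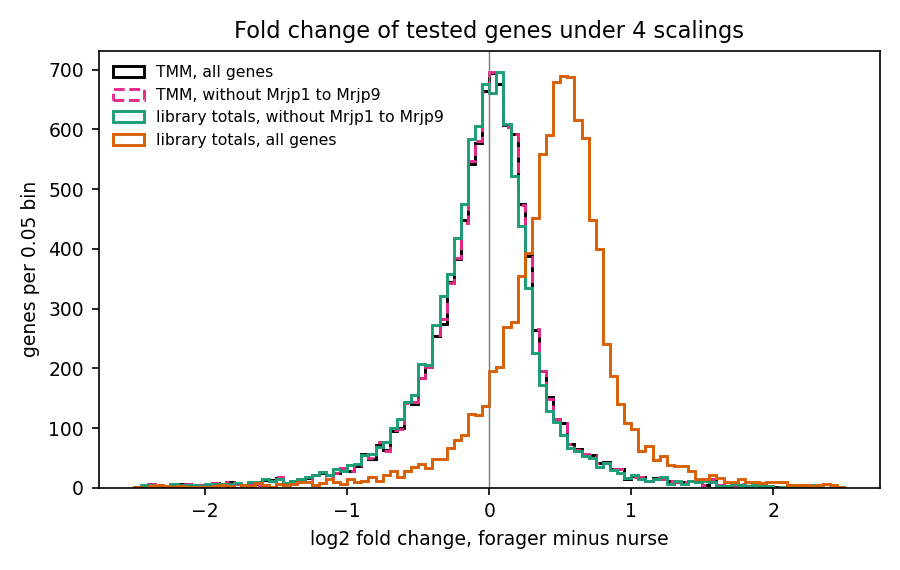
Number of genes per 0.05 bin of log2 fold change (forager minus nurse) under 4 scalings, for genes within 2.5 of 0. The curves from TMM with and without the royal jelly genes lie on each other, the curve from totals without these genes has a median of -0.03, and the curve from totals that include them is moved to a median of 0.49.

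Of 9932 genes tested, 1 passed the study's threshold of an adjusted p under 0.01 and a log2 fold change beyond 1 in edgeR's quasi-likelihood test with Benjamini-Hochberg adjustment, which is 0.0101% of the genes. It was higher in foragers, and 0 genes were lower by the same test. At an unadjusted p under 0.05 the test held 553 higher and 774 lower genes (5.57% and 7.79%), 13.4% of those tested. At an adjusted p under 0.05 it held 13 higher and 7 lower genes (0.131% and 0.0705%). DESeq2 at the study's threshold called 47 genes higher and 51 lower, 0.473% and 0.513%, or 0.987% in all. Its list held 19 of the 20 genes that edgeR had under 0.05, which is 95% of the edgeR list and 19.4% of the DESeq2 list. In each of its 98 genes the forager and the nurse libraries did not overlap, which was also the case in 47.3% of all genes tested, and the highest edgeR adjusted p among them was 0.245. Of the 98 genes, 28 were called again by DESeq2 whichever of the 4 worker libraries was left out.

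With 2 pools per caste the spread is poorly known, and an exact permutation test of 1 gene cannot go below p = 0.333. The DESeq2 count lay between 72, without the first nurse library, and 131, without the second nurse library. Its split into higher and lower genes turned with the library left out, from 29 and 63 without the second forager library to 89 and 42 without the second nurse library. The edgeR count was 2 without the second forager library and 6 without the second nurse library. Plain totals that include the royal jelly genes gave 305 edgeR calls (3.07%), of which 83.9% were higher in foragers, and totals without them gave 8 (0.0805%).

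The gene that rose in foragers was LOC726737, which has no name in the sources. It lies on linkage group 5 from 13084874 to 13089155 of the Amel_HAv3.1 assembly. It stood at 329.9 and 419 CPM in foragers, against 11.5 and 13.9 CPM in nurses, and at 4.97 and 7.72 CPM in queens. Both forager libraries were far above both nurse libraries, and the replicates of each caste lay close together. The log2 fold change was 4.88 ± 0.26 (SE; edgeR adjusted p = 0.00194, n = 2 each), a ratio of means of 29.5. Without the first nurse library the edgeR adjusted p was 0.0186 and the call was lost. With TMM that leaves out the royal jelly genes, the call was lost without the first forager or the first nurse library. DESeq2 kept the gene in all 4 leave-outs. It shares 1373 bases with LOC726703, which had 16.6 and 8.63 CPM in foragers, against 3.42 and 4.93 CPM in nurses, and since the strand of the counting is not stated, reads of this stretch cannot be assigned with certainty.

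Several genes stopped just above the threshold. *Apid1*, which encodes an apidaecin, a short antibacterial peptide of the hemolymph, was higher in foragers (edgeR adjusted p = 0.0105). *Apd-1*, an apidermin gene of the cuticle, had the same adjusted p in the opposite direction. LOC100577430 on linkage group 14 stood at 115 and 121 CPM in foragers, against 32.6 and 36.2 CPM in nurses, a log2 fold change of 1.78 ± 0.15 (edgeR adjusted p = 0.0105). LOC412630 on linkage group 12 stood at 2.64 and 2.71 CPM in foragers, against 13.7 and 13.3 CPM in nurses, or -2.33 ± 0.20 (edgeR adjusted p = 0.0105). In LOC100577430 and LOC412630 the gap between castes was many times that between replicates. LOC412630 lies largely within another gene, LOC412157, with which it shares 12279 of its 14458 bases.

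LOC100576555, on linkage group 13 from 5587282 to 5593549, had 20.7 and 19.001 CPM in foragers, against 1.66 and 3.03 CPM in nurses, while queens had 1160 and 1125 CPM. Its log2 fold change between workers was 3.05 ± 0.26 (edgeR adjusted p = 0.0105). LOC100578929, LOC107965822 and LOC100576271 followed with edgeR adjusted p of 0.0123, 0.0123 and 0.0136. LOC100576271 was lower in foragers (3.38 and 2.44 CPM, against 22.3 and 15.5 CPM in nurses), and the other pair was higher in foragers. None of these genes has a product name in the sources.

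LOC724114 and LOC552277 are neighbors on linkage group 2, with 273 bases between the end of the first at 14003697 and the start of the second at 14003971. They differed between the castes in opposite directions. LOC724114 had 12.8 and 26.4 CPM in foragers, against 144 and 169 CPM in nurses (log2 fold change -3.005 ± 0.31, edgeR adjusted p = 0.0215). LOC552277 had 111 and 206 CPM in foragers, against 21.6 and 48.9 CPM in nurses (2.16 ± 0.44, edgeR adjusted p = 0.159). DESeq2 called both. The pair was picked out after its values had been seen, from the 4 pairs of called genes that lie within 5000 bases of each other. The others are *Mrjp4* with *Mrjp6*, *Apd-1* with *Apd-2*, and the lysozyme gene LOC724899 with LOC113218576.

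The royal jelly genes stand side by side on linkage group 11, from 2268450, the start of *Mrjp3*, to 2325880, the end of *Mrjp9*. They are close paralogs whose reads RSEM divides among them, so the value of a single member is uncertain. Both nurse libraries were above both forager libraries in 7 of the 9 members, against 23.2% of all genes tested. Both forager libraries were above in the other 2, against 24.1% of all genes tested. The median log2 fold change of the 9 was -2.83, against -0.00 over all genes tested. The edgeR test called none of them at 0.01. DESeq2 called 2 lower and 1 higher, against 0.513% and 0.473% of all genes tested.

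*Mrjp1*, the most abundant protein of royal jelly, stood at 7210.4 and 64180.3 CPM in foragers, against 337089 and 171340.0 CPM in nurses. *Mrjp2* stood at 1208 and 13808 CPM in foragers, against 123856 and 48268 CPM in nurses. *Mrjp3* stood at 368 and 6359 CPM in foragers, against 79280.0 and 43557 CPM in nurses. In each of these the second forager library was closer to the nurses than the first, and the castes did not overlap. *Mrjp1* had 8.90 times, *Mrjp2* 11.4 times and *Mrjp3* 17.3 times the level of the first forager library in the second. Their log2 fold changes were -2.83 ± 1.13, -3.52 ± 1.10 and -4.19 ± 1.1996, with edgeR adjusted p of 0.349, 0.268 and 0.245.

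*Mrjp4* and *Mrjp7* had the same shape. *Mrjp4* had 67.6 and 817 CPM in foragers, against 14958 and 6932 CPM in nurses, or -4.63 ± 1.08 (edgeR adjusted p = 0.195). *Mrjp7* had 47.9 and 881 CPM in foragers, against 12618 and 5723 CPM in nurses, or -4.30 ± 1.19 (edgeR adjusted p = 0.233). *Mrjp5* differed less, with 1909 and 6019.9 CPM in foragers, against 17819.7 and 8746 CPM in nurses, or -1.74 ± 0.61. *Mrjp9* was low throughout, at 3.13 and 14.3 CPM in foragers, against 30.5 and 20.6 CPM in nurses.

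Which members DESeq2 called depended on the libraries in the fit. It called *Mrjp3* (adjusted p = 0.00872) and *Mrjp4* (adjusted p = 0.00183) lower in foragers. Without the second forager library it also called *Mrjp1*, *Mrjp2*, *Mrjp5*, *Mrjp7* and *Mrjp9*, with adjusted p between 3.67e-80 for *Mrjp3* and 0.000488 for *Mrjp1*. Without the first forager library it called *Mrjp2*, *Mrjp3*, *Mrjp4* and *Mrjp7*. Without the first nurse library its adjusted p was 0.474 for *Mrjp3* and 0.296 for *Mrjp4*, and without the second nurse library 0.108 and 0.028. The direction of each of the 7 was kept in every leave-out and under every scaling tried.

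*Mrjp6* went the other way. It stood at 1323 and 881 CPM in foragers, against 294 and 288 CPM in nurses, and 1.49 and 2.21 CPM in queens. The nurse libraries were alike and below both forager libraries. The log2 fold change was 1.92 ± 0.24 (edgeR adjusted p = 0.0492), and DESeq2 called the gene in all 4 leave-outs. Within the family *Mrjp6* took 10.9% and 0.948% of the royal jelly counts of the forager libraries, against 0.0502% and 0.101% in the nurse libraries. *Mrjp8* was also higher in both forager libraries, at 21.5 and 29.8 CPM, against 16.1 and 15.8 CPM in nurses, a log2 fold change of 0.69 ± 0.18 (edgeR adjusted p = 0.219). The order of the family was not the same in the queen libraries, where *Mrjp8*, at 48.9 and 47.03 CPM, and *Mrjp7*, at 14.1 and 14.3 CPM, were the members over 10 CPM.

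**Figure D3:**
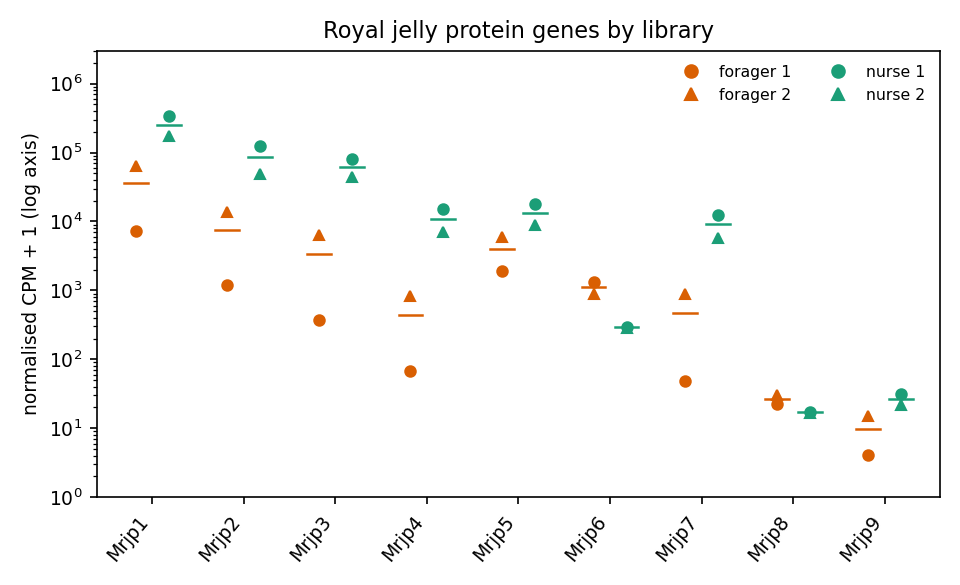
Level of the 9 royal jelly genes in the forager and nurse libraries, as CPM of the TMM-scaled library plus 1 on a log axis, with circles for replicate 1, triangles for replicate 2 and bars for the mean of a caste. The forager circle lies below the forager triangle in every member except Mrjp6, and forager points lie above nurse points in Mrjp6 and Mrjp8 alone.

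Of 3 alpha-glucosidase genes listed together, 2 had both forager libraries above (66.7%, background 24.1%) and 1 both nurse libraries above (33.3%, background 23.2%). Of the 3, *Hbg3* was the one taken as a marker of the hypopharyngeal gland. The edgeR test called none of them, and DESeq2 called *Hbg3*. *Hbg3*, an alpha-glucosidase that splits sucrose, lies on linkage group 6 from 4602439 to 4613520. It had 13036 and 16794 CPM in foragers, against 1604 and 2649.6 CPM in nurses, and 599.6 and 877 CPM in queens. Both forager libraries were above both nurse libraries by several times, a log2 fold change of 2.81 ± 0.39 (edgeR adjusted p = 0.0618), and DESeq2 called the gene in all 4 leave-outs. *AGLU2*, the next alpha-glucosidase gene along the chromosome, had 515 and 570.2 CPM in foragers, against 260.0 and 332 CPM in nurses (0.87 ± 0.19, edgeR adjusted p = 0.164). *Hbg2*, an alpha-glucosidase gene elsewhere in the genome, had 1.35 and 1.67 CPM in foragers, against 2.86 and 13.3 CPM in nurses, and thus did not share the direction of *Hbg3*. Both *Hbg3* and *AGLU2* lie inside the span of LOC724389, a gene with a mean of 29.2 CPM in workers.

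LOC406114, a gene on linkage group 13 without a name in the sources, was nearly silent in queens at 0.646 and 2.01 CPM. It had 2204 and 2029 CPM in foragers, against 222 and 397 CPM in nurses. The forager replicates were alike, and the log2 fold change was 2.77 ± 0.41 (edgeR adjusted p = 0.0704). DESeq2 called it in the full set (adjusted p = 0.00157), but not without the first forager (0.166), the second forager (0.146) or the first nurse library (0.183).

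The 3 alpha-glucosidase genes summed to 13553 and 17366 CPM in foragers, against 1867 and 2995 CPM in nurses, and most of each sum was *Hbg3*. *Hbg3* and most of the royal jelly genes thus ran in opposite directions between the castes, and at high counts in brain libraries. What share of any difference came from gland tissue in the pools was not tested. In bulk RNA, fewer cells of a type cannot be told apart from less RNA per cell.

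Genes of antibacterial peptides were among the largest differences in favor of foragers. *Apid1*, on linkage group 16 from 4518604 to 4520315, had 443 and 621 CPM in foragers, against 11.8 and 17.7 CPM in nurses, and 4305 and 2295 CPM in queens. The log2 fold change was 5.17 ± 0.43 (edgeR adjusted p = 0.0105), with no overlap between castes. DESeq2 called *Apid1* in every leave-out.

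Hymenoptaecin (LOC406142, linkage group 6, 2367078 to 2368717), a glycine-rich antibacterial peptide, had 950.1 and 1050.2 CPM in foragers, against 7.20 and 28.7 CPM in nurses. The forager libraries agreed closely while the nurse libraries differed by about 4 times. The log2 fold change was 5.79 ± 0.996 (edgeR adjusted p = 0.106). DESeq2 gave an adjusted p of 2.28e-05, but 0.0265 without the first and 0.0333 without the second forager library. The gene lies whole within LOC552342, which had a mean of 78.7 CPM in workers and a log2 fold change of 0.23.

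*IRP30* (LOC408807, linkage group 4, 8204758 to 8206134), a secreted protein induced by immune challenge, had 2704 and 1905 CPM in foragers, against 84.8 and 21.8 CPM in nurses. Queens had more than either, 16859 and 12629 CPM. Its log2 fold change between workers was 5.44 ± 0.70 (edgeR adjusted p = 0.0492), and DESeq2 called it in all 4 leave-outs. *Pgrp-s2*, a peptidoglycan recognition protein that senses bacterial cell walls, had 313 and 317 CPM in foragers, against 120.4 and 142 CPM in nurses (1.26 ± 0.20, edgeR adjusted p = 0.0833). LOC406144 has no name in the sources and is not in the immune list. It had 104 and 165 CPM in foragers, against 24.9 and 13.4 CPM in nurses (2.81 ± 0.42, edgeR adjusted p = 0.0739).

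The immune list as a whole did not move one way. Of its 18 members, all tested, 5 had both forager libraries above both nurse libraries (background 24.1%), 3 had both nurse libraries above (background 23.2%), and 10 overlapped, with a median log2 fold change of -0.00. DESeq2 called 4 higher (*Apid1*, hymenoptaecin, *IRP30* and *Pgrp-s2*) and 1 lower, against 0.473% and 0.513% of all genes tested. *Def1*, the defensin of royal jelly and hemolymph, had 822 and 2875 CPM in foragers, against 3989 and 2416 CPM in nurses, and the castes overlapped. The lysozyme gene LOC724899 had 25.8 and 38.6 CPM in foragers, against 58.0 and 104 CPM in nurses (-1.33 ± 0.30, edgeR adjusted p = 0.19). *PPO*, the phenoloxidase precursor of melanin formation in blood cells, had 9.08 and 27.98 CPM in foragers, against 38.3 and 68.8 CPM in nurses. DESeq2 called the lysozyme gene lower (adjusted p = 0.00237), but not without the first forager (0.126) or the second nurse library (0.108).

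**Figure D4:**
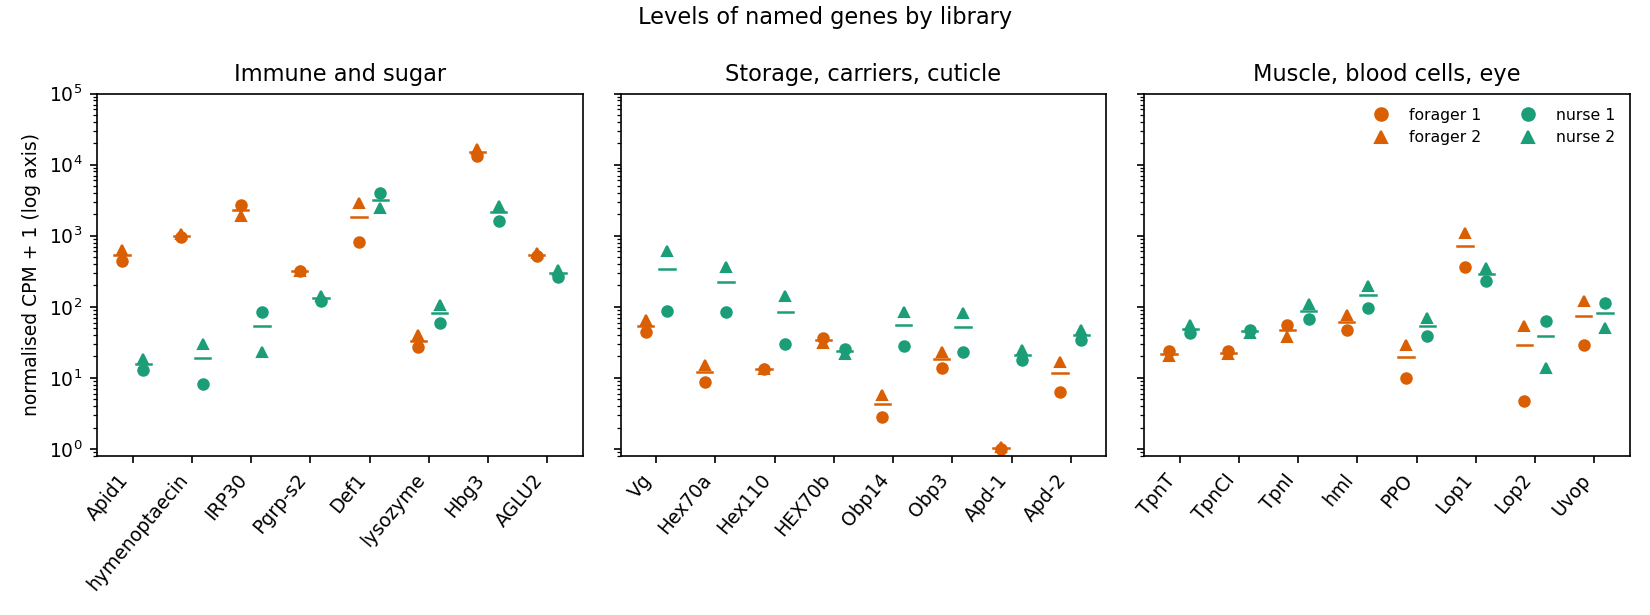
Level of 24 named genes in the forager and nurse libraries, as CPM of the TMM-scaled library plus 1 on a log axis, with circles for replicate 1, triangles for replicate 2 and bars for the mean of a caste. The left panel holds immune and sugar genes, among which Apid1, hymenoptaecin and IRP30 are farthest apart between castes, the middle panel storage, carrier and cuticle genes, of which all but HEX70b have the higher mean in nurses, and the right panel muscle, blood cell and eye genes, where the opsins Lop2 and Uvop differ as much within a caste as between castes.

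Some storage proteins of the fat body had their highest level in the second nurse library. *Vg*, which encodes vitellogenin (linkage group 4, 5029485 to 5035661), had 43.3 and 63.5 CPM in foragers, against 87.4 and 601 CPM in nurses. Both nurse libraries were above the foragers, but by very unequal amounts, and queens had 60889.5 and 53244 CPM. The log2 fold change between workers was -2.69 ± 0.84 (edgeR adjusted p = 0.267). Without the second nurse library it was -0.71, the smallest of the leave-outs.

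*Hex70a*, a hexamerin that stores amino acids, had 7.86 and 14.3 CPM in foragers, against 83.1 and 363 CPM in nurses, or -4.34 ± 0.75 (edgeR adjusted p = 0.106). DESeq2 gave 0.000284, and 0.0851, 0.0121 and 0.0119 without the first forager, the second forager and the second nurse library. *Hex110* had 12.5 and 12.3 CPM in foragers, against 29.3 and 139.7 CPM in nurses, or -2.77 ± 0.63 (edgeR adjusted p = 0.192). With the first nurse library left out edgeR called *Hex110* (adjusted p = 0.000995). *Hex70c* was low, at 0.307 and 1.39 CPM in foragers, against 10.6 and 1.21 CPM in nurses, and there the first nurse library was the high one. *HEX70b* had the other order to *Hex70a*, at 35.9 and 30.1 CPM in foragers, against 24.5 and 20.8 CPM in nurses.

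Over the 10 members of the storage, lipid carrier and yolk list, 4 had both forager libraries above (background 24.1%), 4 both nurse libraries above (background 23.2%) and 2 overlapped, with no edgeR call. The median log2 fold change was -0.50, and -0.07 without the second nurse library. The apolipophorin gene LOC408961, of the main lipid carrier of hemolymph, had 889.6 and 885 CPM in foragers, against 1114 and 1116 CPM in nurses, a log2 fold change of -0.33 that turned to 0.16 under plain library totals with the royal jelly genes. *Fabp*, a fatty acid binding protein, had 2053 and 1836 CPM in foragers, against 955 and 1246 CPM in nurses (0.82 ± 0.25, edgeR adjusted p = 0.258).

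*Obp14*, an odorant binding protein gene on linkage group 15, was the member of its list that stood farthest from 0. It had 1.78 and 4.73 CPM in foragers, against 27.2 and 82.3 CPM in nurses, and 1261 and 1914 CPM in queens. The log2 fold change was -4.09 ± 0.65 (edgeR adjusted p = 0.0833). DESeq2 gave 0.000168, and 0.0229 without the first forager and 0.0223 without the second nurse library. *CSP3*, a chemosensory protein gene, stood at 8504 and 10719 CPM in foragers, against 7925 and 9242 CPM in nurses, and the castes overlapped. Over the 17 tested of the 23 odorant binding and chemosensory protein genes the median log2 fold change was 0.16, with 5 members above in both forager libraries (29.4%, background 24.1%) and 4 above in both nurse libraries (23.5%, background 23.2%).

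The genes *Apd-1*, *Apd-2* and *Apd-3* of apidermins, structural proteins of the bee cuticle, were lower in foragers. A separate entry of the list, *apd-3*, was not read out here. *Apd-1* (linkage group 4, 4486092 to 4488233) had 0 and 0.0696 CPM in foragers, against 16.9 and 23.7 CPM in nurses. That is 1 count in both forager libraries against 495 in both nurse libraries, a ratio of 632 after scaling, with a 95% counting interval of 113 to 25009. The edgeR adjusted p was 0.0105, and DESeq2 called the gene in all 4 leave-outs. *Apd-3* had 1 count against 69, a ratio of 88.1 with an interval of 15.3 to 3529. *Apd-2*, which starts 516 bases after the end of *Apd-1*, had 5.40 and 15.9 CPM in foragers, against 33.1 and 46.3 CPM in nurses (-1.91 ± 0.45, edgeR adjusted p = 0.199). DESeq2 called *Apd-2* and *Apd-3* in the full set, with adjusted p of 0.00768 and 0.00639. *Apd-2* was not called without the first forager (0.0501), the first nurse (0.0232) or the second nurse library (0.167), and *Apd-3* in none of the 4 leave-outs, where its adjusted p was 0.051 to 0.197.

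The rest of the cuticle list was mixed. Of 28 members 20 passed the filter on low counts, 4 with both forager libraries above (20%, background 24.1%) and 9 with both nurse libraries above (45.0%, background 23.2%), and their median log2 fold change was -0.22. The cuticular protein gene *CPR22* had 16.3 and 12.5 CPM in foragers, against 51.3 and 72.6 CPM in nurses (-2.10 ± 0.54, edgeR adjusted p = 0.215). *CPR14*, on the same linkage group, had 48.98 and 56.2 CPM in foragers, against 77.9 and 111 CPM in nurses.

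Most muscle genes were lower in foragers. *TpnT*, the tropomyosin-binding troponin, had 22.5 and 19.1 CPM in foragers, against 41.6 and 54.7 CPM in nurses (-1.21 ± 0.17, edgeR adjusted p = 0.0657). *TpnCI*, a calcium-binding troponin, had 22.6 and 20.7 CPM in foragers, against 46.5 and 42.2 CPM in nurses (-1.03 ± 0.13, edgeR adjusted p = 0.0492). The castes did not overlap in either gene. Muscle myosin heavy chain (LOC409843) had 188 and 115 CPM in foragers, against 214 and 284 CPM in nurses. Both nurse libraries were above in 9 of 13 members (69.2%, background 23.2%) and both forager libraries in 0 (background 24.1%), with a median log2 fold change of -0.64 (-0.13 under plain totals with the royal jelly genes, where all genes had 0.49). The summed level of the 13 genes overlapped between castes, at 1273 and 1233 CPM in foragers, against 1261 and 1726 CPM in nurses. DESeq2 called *TpnT* and *TpnCI*. Without the second forager and the second nurse library *TpnT* was lost (0.033 and 0.0397), and *TpnCI* was kept only without the second nurse library (0.00872, otherwise 0.0162 to 0.0658).

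Markers of blood cells were read in the same way. Hemolectin, or *hml* (LOC411597), a clotting protein of hemocytes, had 45.9 and 75.2 CPM in foragers, against 96.5 and 195 CPM in nurses (-1.27 ± 0.35, edgeR adjusted p = 0.23). The 4 hemocyte markers had a median log2 fold change of -0.98, with both nurse libraries above in 3 (75%, background 23.2%) and no call by edgeR or DESeq2. Their summed level was 843 and 977 CPM in foragers, against 1031 and 1127.5 CPM in nurses.

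Of 12 phototransduction and eye genes, 4 had both forager libraries above, 2 both nurse libraries above and 6 overlapped, close to the shares over all genes (24.1% and 23.2% not overlapping in each direction). The long-wave opsin *Lop1* had 363 and 1086 CPM in foragers, against 233 and 347 CPM in nurses. *Lop2*, its neighbor on linkage group 15, had 3.81 and 52.9 CPM in foragers, against 62.7 and 12.7 CPM in nurses. The blue opsin *Blop* had 45.97 and 58.7 CPM in foragers, against 31.0 and 41.9 CPM in nurses, and did not overlap. The ultraviolet opsin *Uvop* had 27.9 and 118 CPM in foragers, against 111 and 48.7 CPM in nurses. In both *Lop2* and *Uvop* the second forager and the first nurse library were the high ones, and the castes overlapped. The 12 genes of the phototransduction and eye list summed to 1366 and 2972 CPM in foragers, against 1444 and 1291 CPM in nurses. The second forager library was the one with the most eye transcripts, and it was also the forager library with more royal jelly counts. Muscle, blood cell, eye and gland markers thus varied between these pools beside the genes above, and their part in the differences was not tested.

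Genes of nerve cells differed little in size. The 7 neuron markers had a median log2 fold change of -0.10, between -0.43 and 0.18, and summed to 1386 and 1425 CPM in foragers, against 1458 and 1611 CPM in nurses. Synapsin (LOC551737), of the synaptic vesicle, had 232 and 247 CPM in foragers, against 312 and 305 CPM in nurses. The 8 Kenyon cell markers, of the intrinsic neurons of the mushroom bodies, had a median of 0.03. They overlapped between castes in 6 genes, as did 5236 of all 9932 genes tested. *Mblk-1*, a transcription factor of the large Kenyon cells, had 273 and 304 CPM in foragers, against 157.6 and 276 CPM in nurses. Neither edgeR nor DESeq2 called a member of the 2 lists.

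Ion channels and the genes of fast transmission leaned to nurses in the bulk libraries, with members on both sides of 0. Of 20 ion channel genes, 13 had both nurse libraries above both forager libraries (65.0%, background 23.2%). The reverse held in 1 (5.0%, background 24.1%), and the median log2 fold change was -0.45. *Para*, the voltage-gated sodium channel, had 104 and 90.3 CPM in foragers, against 162 and 157 CPM in nurses (-0.71 ± 0.20, edgeR adjusted p = 0.245). The piezo-type mechanosensitive channel LOC408427 had 81.8 and 89.2 CPM in foragers, against 122 and 222 CPM in nurses (-1.01 ± 0.26, edgeR adjusted p = 0.219). The castes did not overlap in either gene.

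Of 24 GABA and glutamate genes, 14 had both nurse libraries above (58.3%, background 23.2%). The reverse held in 2 (8.33%, background 24.1%), and the median was -0.33. The kainate receptor gene LOC411050 was the lowest, at 4.73 and 5.78 CPM in foragers, against 18.1 and 12.1 CPM in nurses (-1.52 ± 0.35, edgeR adjusted p = 0.194). DESeq2 called it (0.00748), but not without the first forager (0.218), the second forager (0.0626), the first nurse (0.406) or the second nurse library (0.0118). *Eaat-2*, a glutamate transporter, was the highest of the list, at 491 and 414 CPM in foragers, against 322 and 298 CPM in nurses (0.55 ± 0.17, edgeR adjusted p = 0.266).

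The sign of these medians rested on the scale. Under plain library totals with the royal jelly genes the ion channel median was 0.04 and the GABA and glutamate median 0.17, while the median over all genes was 0.49. Relative to all genes both lists lay on the nurse side on either scale. A change of totals moves all genes by nearly the same amount, so this is no separate support.

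Acetylcholine genes (19 genes, median -0.15) and monoamine genes (24 genes, median -0.16) had 6 and 9 members with both nurse libraries above (31.6% and 37.5%, background 23.2%). Both forager libraries were above in 2 and 3 members (10.5% and 12.5%, background 24.1%), and 11 and 12 overlapped. The vesicular monoamine transporter *Vmat* (LOC408517) had 63.7 and 79.7 CPM in foragers, against 109 and 132.2 CPM in nurses (-0.75 ± 0.16, edgeR adjusted p = 0.164). Aromatic-L-amino-acid decarboxylase (LOC410638), which makes dopamine and serotonin, had 171 and 192 CPM in foragers, against 111 and 85.3 CPM in nurses (0.89 ± 0.32, edgeR adjusted p = 0.315). *Vmat* shares 1838 bases with LOC726476, a glycosyltransferase gene that DESeq2 called lower in the full set and in 3 of the 4 leave-outs, at 133 and 170.3 CPM in foragers, against 357 and 317 CPM in nurses. Reads from the shared stretch cannot be told apart without the strand.

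Among calcium, cAMP and cGMP genes, 11 of 23 had both nurse libraries above (47.8%, background 23.2%). The reverse held in 5 (21.7%, background 24.1%), and the median was -0.23. Adenylate cyclase type 6 (LOC726514), which makes cAMP, had 16.8 and 21.4 CPM in foragers, against 37.5 and 41.6 CPM in nurses (-1.05 ± 0.17, edgeR adjusted p = 0.0833). DESeq2 called it (0.00028), and lost it without the first forager (0.12), the first nurse (0.0323) and the second nurse library (0.0806). Calexcitin-2 (LOC410013), a calcium-binding protein, had 1411 and 1289.8 CPM in foragers, against 742 and 887 CPM in nurses (0.73 ± 0.20, edgeR adjusted p = 0.232).

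Neuropeptide genes showed no common direction. Of 26 tested, 20 overlapped between castes, as did 5236 of all 9932 genes tested, and the median log2 fold change was 0.01. Both forager libraries were above in 5 (19.2%, background 24.1%) and both nurse libraries in 1 (3.85%, background 23.2%). *Tk*, the tachykinin precursor, had 155 and 135 CPM in foragers, against 156 and 153 CPM in nurses. The gene for crustacean cardioactive peptide (LOC724113) had 9.94 and 12.9 CPM in foragers, against 5.73 and 4.93 CPM in nurses (1.10 ± 0.29, edgeR adjusted p = 0.221). Orcokinin (LOC726294) had 37.9 and 33.3 CPM in foragers, against 67.05 and 56.2 CPM in nurses (-0.79 ± 0.15, edgeR adjusted p = 0.135). The insulin-like peptide gene *ILP-2* had 8.96 and 6.82 CPM in foragers, against 6.65 and 6.37 CPM in nurses.

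**Figure D5:**
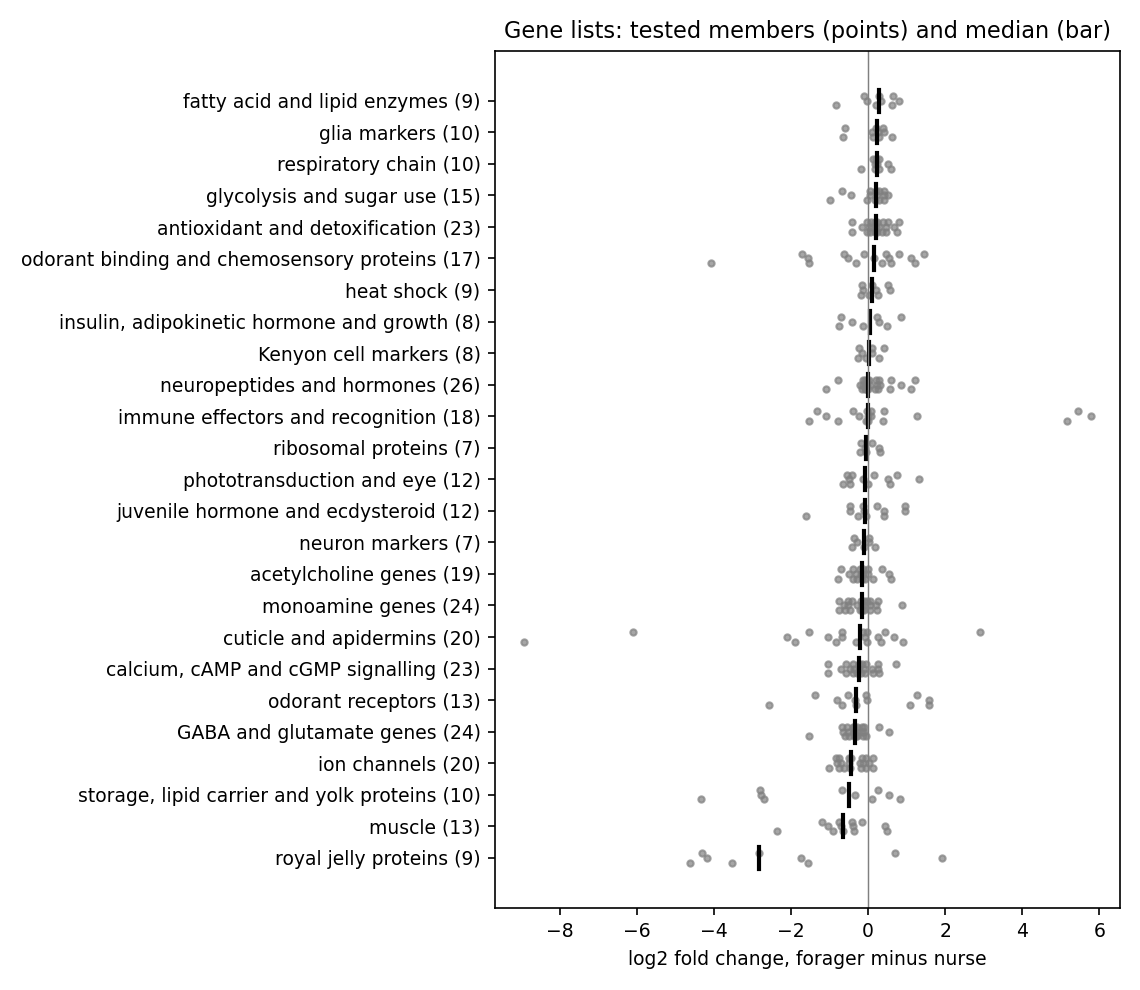
Log2 fold change (forager minus nurse) of the tested members of the gene lists with at least 7 tested members, with the number tested in parentheses, points for genes and a bar for the median. The DNA methylation and sex determination list, with 7 tested members and a median of -0.18, is not drawn. The royal jelly list has its median at -2.83 and the muscle list at -0.64, the neural lists lie between -0.45 and 0.03, and the respiratory chain and antioxidant lists at 0.22 and 0.20.

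Genes known for the step to foraging were read out whether or not they differed. *For*, the cGMP-dependent protein kinase named for foraging behavior in the fly, had 82.9 and 87.6 CPM in foragers, against 70.5 and 153 CPM in nurses, and the castes overlapped. The clock gene *Per* had 40.1 and 47.7 CPM in foragers, against 54.2 and 62.3 CPM in nurses (-0.41 ± 0.14, edgeR adjusted p = 0.291). Its partner *Cry2* had 12.8 and 17.6 CPM in foragers, against 19.3 and 21.8 CPM in nurses. Both were lower in the forager libraries on the TMM scale, and close to 0 at 0.06 and 0.03 under plain totals with the royal jelly genes. *AChE-2*, an acetylcholinesterase, had 242 and 280.1 CPM in foragers, against 206 and 277 CPM in nurses. *Mvl*, *Tor* and *ILP-1* were not analysed here.

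Of the 12 genes of the juvenile hormone and ecdysteroid list, 3 had both forager libraries above (background 24.1%), 2 had both nurse libraries above (background 23.2%) and 7 overlapped, with a median log2 fold change of -0.08. *Kr-h1*, a transcription factor induced by juvenile hormone, had 82.2 and 97.7 CPM in foragers, against 34.4 and 58.5 CPM in nurses (0.95 ± 0.31, edgeR adjusted p = 0.282). *E75*, a nuclear receptor of the ecdysone cascade, had 170.1 and 225 CPM in foragers, against 82.3 and 121 CPM in nurses (0.96 ± 0.29, edgeR adjusted p = 0.255). *Jhe*, juvenile hormone esterase, had 9.45 and 10.7 CPM in foragers, against 16.8 and 44.7 CPM in nurses (-1.61 ± 0.42, edgeR adjusted p = 0.219). None of the 3 genes overlapped between castes. DESeq2 called *Jhe* (0.00583) and lost it without the first forager (0.102), the second forager (0.656) and the second nurse library (0.259).

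Energy and defense genes leaned to foragers by small amounts. In the respiratory chain list 6 of 10 genes had both forager libraries above both nurse libraries (60.0%, background 24.1%). The reverse held in 1 (10.0%, background 23.2%), and the median was 0.22. *CytC*, the electron carrier cytochrome c, had 545 and 621 CPM in foragers, against 389 and 421 CPM in nurses (0.53 ± 0.15, edgeR adjusted p = 0.247). In the antioxidant and detoxification list 12 of 23 tested genes had both forager libraries above (52.2%, background 24.1%). The reverse held in 2 (8.70%, background 23.2%), and the median was 0.20. *MsrA*, which repairs oxidized methionine, was the highest of that list, at 538 and 560.2 CPM in foragers, against 255 and 373 CPM in nurses (0.81 ± 0.23, edgeR adjusted p = 0.245).

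Glycolytic genes had a median of 0.20 over 15, and aldolase (LOC550785) had 3861 and 3937 CPM in foragers, against 4149 and 3840.5 CPM in nurses. Lipid enzymes depended on 1 library. Fatty acid synthase (LOC412815) had 2869 and 3668 CPM in foragers, against 1103 and 3131 CPM in nurses, and *FAR1*, a fatty acyl-CoA reductase, had 2769.6 and 4193 CPM in foragers, against 995 and 3486 CPM in nurses. In both genes the first nurse library was low and the castes overlapped. Of the 10 glial markers 5 had both forager libraries above (50%, background 24.1%) and 1 both nurse libraries above (10.0%, background 23.2%), with a median of 0.23. Transferrin *Tsf1*, an iron carrier, had 6057 and 7608 CPM in foragers, against 4655 and 4256 CPM in nurses (0.62 ± 0.31, edgeR adjusted p = 0.44).

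A few metabolic and sensory genes outside these lists or at their edge were called by DESeq2. Inositol oxygenase (LOC408650) had 812 and 754 CPM in foragers, against 298 and 387 CPM in nurses, and was called in all 4 leave-outs. The glucosylceramidase-like gene LOC409708 had 254 and 472 CPM in foragers, against 2099.9 and 1015 CPM in nurses, and was also called in all 4. *Gr10*, a gustatory receptor gene, had 14.2 and 17.1 CPM in foragers, against 40.3 and 40.8 CPM in nurses, and lost its call without the first forager (0.0198) and the first nurse library (0.0124). Their edgeR adjusted p were 0.131, 0.16 and 0.06. Carbonic anhydrase 1 (LOC408827) had 529 and 579 CPM in foragers, against 186 and 302 CPM in nurses, and kept its DESeq2 call only without the second nurse library.

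Single-cell libraries of the same castes gave a second reading of the forager and nurse difference, from brains dissociated into cells. Here unique molecular identifiers (UMIs) were summed over all deposited barcodes of a library, 173046066 to 198443027 per worker library. The genes with a RefSeq gene number, which entered the tests, held 166187532 to 193708731 of them. No doublets were removed or called, since each library was read as a single sum. *Mrjp1* to *Mrjp9* had 519 and 702 UMIs in foragers, against 9078 and 10095 UMIs in nurses, and took 0.000268% and 0.000407% of the forager sums, against 0.00481% and 0.00607% of the nurse sums. The family was thus on the nurse side in these libraries too, at a far smaller share of the RNA than in the bulk libraries.

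In the sums edgeR called 5 of 11326 genes lower in foragers and 0 higher (0.0441%), with 2623 genes at an unadjusted p under 0.05 and 128 higher and 275 lower genes called by DESeq2 (3.56%). The 5 were *Mrjp1*, *Mrjp2*, *Mrjp3*, *Mrjp4* and LOC100578445. *Mrjp3* had 2 and 3 UMIs in foragers, against 1914 and 1823 UMIs in nurses, a log2 fold change of -9.47 ± 0.32 (edgeR adjusted p = 0.000139). *Mrjp1* had 94 and 103 UMIs in foragers, against 4416 and 4872 UMIs in nurses, or -5.55 ± 0.37 (edgeR adjusted p = 0.00489). The count was 2 without either forager library and 1 without either nurse library. *Mrjp6* had 82 and 125 UMIs in foragers, against 23 and 15 UMIs in nurses (2.47 ± 0.41, edgeR adjusted p = 0.0633), the same side as in bulk.

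Other genes that differed in bulk were also read in the sums. LOC726737 had 16 and 17 UMIs in foragers, against 5 and 9 UMIs in nurses, and *Apid1* had 21 and 16 UMIs in foragers, against 15 and 20 UMIs in nurses. *Apd-1* had 6 and 3 UMIs in foragers, against 124 and 35 UMIs in nurses, a log2 fold change of -4.08 ± 0.84 (edgeR adjusted p = 0.0687). *IRP30* (LOC408807) had 97 and 256 UMIs in foragers, against 39 and 41 UMIs in nurses, or 2.17 ± 1.25 (edgeR adjusted p = 0.334). The libraries of LOC726737 (edgeR adjusted p = 0.2), *Apd-1* and *IRP30* stood in the caste order of bulk, and those of *Apid1* overlapped. The share of all genes without overlap in the sums is not given here, so this order is description only. *Hbg3* had 6156 and 6249 UMIs in foragers, against 2620 and 8784 UMIs in nurses, so that the castes overlapped. *Kr-h1* had 19334 and 14681 UMIs in foragers, against 4137 and 7038 UMIs in nurses (1.59 ± 0.28, edgeR adjusted p = 0.0633). Some genes lower in foragers in bulk were higher in the sums. *Hex110* had 1936 and 1913 UMIs in foragers, against 880 and 562 UMIs in nurses (1.44 ± 0.21, edgeR adjusted p = 0.0464). *Hex70a* had 112 and 127 UMIs in foragers, against 54 and 45 UMIs in nurses (1.29 ± 0.27, edgeR adjusted p = 0.0737). Muscle myosin heavy chain had 4069 and 4866 UMIs in foragers, against 2773 and 1947 UMIs in nurses (0.95 ± 0.24, edgeR adjusted p = 0.104). The difference between the bulk and the single-cell change was tested in 1 edgeR fit of all 12 libraries. It passed the threshold for 1 of 11135 genes (0.00898%), LOC100576555, with a difference of 3.62 ± 0.30 (edgeR adjusted p = 0.00195), and 1682 genes had an unadjusted p under 0.05. Without either bulk forager library the count was 2, and without either bulk nurse library 5. In the sums LOC100576555 had 260 and 230 UMIs in foragers, against 332 and 388 UMIs in nurses. The corresponding differences were 3.67 ± 0.61 for LOC726737 (edgeR adjusted p = 0.0743) and 5.10 ± 1.34 for *Apid1* (0.159). They were -5.62 ± 0.95 for *Hex70a* (edgeR adjusted p = 0.0743) and -4.21 ± 0.75 for *Hex110* (0.0818). The glycosyltransferase gene LOC726476 had -1.30 ± 0.18 (edgeR adjusted p = 0.0362) and muscle myosin heavy chain -1.66 ± 0.40 (0.138). Of 92 genes called by DESeq2 in bulk and tested in the sums, 66 had the same sign there (71.7%), against 52.96% of the 9796 genes tested in both, and 2 were called by edgeR in the sums. By list, the median log2 fold change in the sums was 0.03 for ion channels and 0.04 for GABA and glutamate genes. It was 0.16 for calcium, cAMP and cGMP genes, 0.07 for acetylcholine and -0.09 for monoamine genes. Muscle genes had -0.04, antioxidant and detoxification genes -0.03, and all genes 0.00. The respiratory chain list had 0.15 and the royal jelly list -3.89. The bulk lean of the ion channel and muscle lists was thus not seen in the sums.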

How the data were processed

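For the bulk libraries the authors trimmed the reads, aligned them with STAR to the Amel_HAv3.1 assembly and deposited RSEM expected counts per gene, not scaled for library size (the submitters' processing notes give Trimmomatic 0.39). For the single-cell libraries the deposited values are UMI counts per gene and barcode, from Cell Ranger 3.1.0. Expected counts were rounded. All 6 bulk libraries went into 1 edgeR 4.0.16 quasi-likelihood fit (R 4.3.3) with TMM and filterByExpr, which left out 1413 of 11345 genes, and no other term. Tests were two-sided with Benjamini-Hochberg adjustment, and calls needed an adjusted p under 0.01 and a log2 fold change beyond 1 (0.5 for single-cell sums). SE is the size of the log2 fold change over the root of F. DESeq2 1.42.0, other scalings, filters and leave-outs were alternatives, and the alternatives to the DESeq2 fit and the leave-outs on the scale without the royal jelly genes and for the bulk against single-cell difference were chosen after seeing the data. The paper calls its single-cell replicates independent and biological, and says that the bulk libraries came from corresponding samples. How the bulk pools were kept separate is not described, so p-values measure the spread between these libraries.

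The members, lists and tests were chosen with earlier results of these data known. The rule for named genes took, among genes called in both scalings, the 12 largest changes each way with at least 5 CPM, the 6 of highest level each way, up to 6 called members of each list or its most abundant member, and *Mrjp1* to *Mrjp9*, *Vg*, *For*, *Mvl*, *Per*, *Kr-h1*, *Tk*, *AChE-2*, *Tor*, *ILP-1* and *ILP-2*. As 1 gene was called, most other genes were named after their values were seen, and serve as description. Gene names came from the deposited tables, RefSeq (11344 genes paired) and the marker tables of the study. Figures and sums used Python 3.11.15, pandas 2.3.3 and matplotlib 3.10.9, and the fits were tested on simulated data.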

Additional observations from a re-analysis of the deposited data

How the results depend on the processing

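The edgeR count of 1 bulk gene was 3 with the 4 worker libraries alone, 6 with RLE size factors, 10 with no filter on low counts, 8 and 305 with plain library totals without and with *Mrjp1* to *Mrjp9*, 20 at an adjusted p under 0.05 with no limit on the fold, and 98 with DESeq2. It was 1 to 6 with a library left out, and 0 to 6 on the scale without the royal jelly genes. The count from single-cell sums, 5, was 403 with DESeq2, 9 with barcodes of 200 to 5000 genes and under 15% mitochondrial UMIs, and 1 to 2 with a library left out. The count of bulk against single-cell differences was 2 to 5 with a library left out. A replicate block left the bulk count at 1 and gave 2 in the sums. Same-numbered forager and nurse libraries deviated with a correlation of 0.04 in bulk and 0.24 in the sums, where both correlations with the queens were below 0 (-0.12 and -0.042), and the labels name nothing that the numbers share. The royal jelly share with *Mrjp1* alone was 0.894% and 6.76% in foragers, against 24.05% and 15.7% in nurses, and 0.000182% and 0.00061% in queens. Of 101 named genes, 16 changed sign in at least 1 setting, and the cause was not tested. Plain totals with the royal jelly genes, which move the median of all genes to 0.49, gave log2 fold changes of 0.16 for LOC408961, 0.10 for *Lop2*, 0.36 for *Uvop*, 0.037 for *For*, 0.061 for *Per*, 0.031 for *Cry2*, 0.41 for *Tk*, 0.33 for LOC408430, 0.13 for LOC551737, 0.39 for LOC411114, 0.24 for *Pkc*, 0.46 for LOC550785 and 0.22 for LOC408804. With a library left out they ran from -0.0068 to 0.31 for *CSP3*, -3.29 to 1.16 for *Lop2*, -1.51 to 0.59 for *Uvop*, -0.14 to 1.29 for LOC550791, -0.83 to 0.28 for *For*, -0.20 to 0.012 for *Tk*, -0.074 to 0.34 for *AChE-2* and -0.089 to 0.032 for LOC550785. TMM without the royal jelly genes and the block changed no call or sign among the 101 genes. With a library left out, an arm of 1 library was assumed to vary like the others.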
